A study of Mus musculus with 15 samples.

Results

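The nCounter Mouse Immunology Panel counts 561 mRNAs, of which 14 are reference genes meant to hold steady between samples, and 9 of those 14 differed from Sham in the spleens of irradiated mice. These were *G6pdx*, *Gapdh*, *Hprt*, *Gusb*, *Polr1b*, *Polr2a*, *Tbp*, *Rpl19* and *Tubb5*. They were chosen from the measured counts themselves, as the reference genes of the panel that differed more than 2-fold from Sham once each sample had been scaled to the geometric mean of *Oaz1*, *Ppia*, *Sdha* and *Eef1g*. *Rpl19*, listed among them, fell just short of 2-fold with this scaling, as given below. The remaining reference gene, *Alas1*, was neither chosen nor used for scaling. Because differences from Sham picked these genes, those differences are given below as a description without a test. All 9 genes averaged 20 counts or more over the samples, as did 440 of the 561 genes in all.

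In that assay each mRNA is bound by a pair of probes with a coloured barcode, and single barcodes are counted without amplification. RNA came from spleen cell suspensions of female C57BL/6J mice aged 6 to 8 weeks, after lysis of red blood cells. Sham mice were neither burned nor irradiated, WBIR mice received whole-body ionising radiation of 9 Gy, and RCI mice received a full-thickness contact burn of 20% of the body surface followed by the same dose. In the WBIR+MSC-EVs and RCI+MSC-EVs groups, extracellular vesicles of mesenchymal stem cells were injected intravenously 72 hours after the injury, and those spleens were taken 48 hours later. The labels name a vehicle, PBS, for the untreated RCI mice alone, while the methods describe saline injections for mice that got no vesicles. The burn came with tribromoethanol, morphine and fluid resuscitation with Ringer's solution, and the methods put Sham mice through the same procedure but do not name these agents for WBIR mice. RCI and WBIR may thus differ in more than the burn, which cannot be told apart here. There were 3 samples in each of the 5 groups, and every group but Sham carried the 9 Gy dose. The labels do not say whether the 3 samples were separate mice, and the methods speak of triplicate runs. The p-values thus rest on the spread between these samples, shared in part among genes, and that spread may be technical. The total count of a sample lay between 90127 and 598872 (median 360995), and the lowest belonged to WBIR+MSC-EVs replicate 1.

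Reference genes, often called housekeeping genes, serve functions that nearly all cells share, such as transcription, translation, energy metabolism and the cytoskeleton. They are counted beside the genes of interest so that differences in the amount of RNA loaded can be divided out, a step that presumes the chosen genes do not change on average. The spleen is mostly made of lymphocytes, which are among the cells most sensitive to radiation. In a bulk sample, fewer cells of a type and less RNA per cell cannot be told apart.

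Promoter sequences of 3 of the 9 genes are shown: *G6pdx*, whose difference from Sham was the largest, and *Tubb5* and *Hprt*, which differed between RCI and WBIR. Each is the 250 bases before the transcription start in RefSeq on mouse build GRCm38.p6, written 5′ to 3′ on the strand of the gene. *G6pdx* is at chrX:74428881-74429130 on the minus strand, *Hprt* at chrX:52987828-52988077 on the plus strand and *Tubb5* at chr17:35838302-35838551 on the minus strand. Capitals mark matches on either strand to 4 motifs. The GC box was searched as GGGCGG. The CCAAT box was searched by the letters of its name. The TATA box was searched as TATAAA. The E box was searched as CACGTG.
G6pdx: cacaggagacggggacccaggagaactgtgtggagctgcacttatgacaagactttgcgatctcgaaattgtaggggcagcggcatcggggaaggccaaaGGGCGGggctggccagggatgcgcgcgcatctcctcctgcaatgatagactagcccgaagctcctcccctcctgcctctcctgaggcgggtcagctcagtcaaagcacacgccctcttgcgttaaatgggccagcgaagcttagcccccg
Hprt: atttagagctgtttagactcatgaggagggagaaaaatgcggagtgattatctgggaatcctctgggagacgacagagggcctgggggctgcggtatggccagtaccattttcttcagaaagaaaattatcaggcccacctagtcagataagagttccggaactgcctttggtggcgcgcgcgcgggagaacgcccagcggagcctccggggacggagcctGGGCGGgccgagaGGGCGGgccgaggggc
Tubb5: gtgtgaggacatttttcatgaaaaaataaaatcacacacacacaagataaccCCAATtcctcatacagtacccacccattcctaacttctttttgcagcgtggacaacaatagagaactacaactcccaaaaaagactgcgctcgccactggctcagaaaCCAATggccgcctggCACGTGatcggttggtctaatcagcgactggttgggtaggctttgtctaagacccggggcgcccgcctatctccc
*G6pdx* held 1 GC box and *Hprt* held 2, and the *Tubb5* window held 2 CCAAT boxes and 1 E box without a GC box. Over all 9 genes, 5 had a GC box, 1 had a CCAAT box, 1 (*Polr2a*) had a TATA box and 2 (*Rpl19* and *Tubb5*) had an E box. Among all 32851 promoters of the table, 32.7% held the GC box, 33.8% the CCAAT box, 12.4% the TATA box and 6.02% the E box. A match is a description of letters in the window, not of a site in use, and these 4 motifs did not overlap in the windows printed.

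The 9 genes went in opposite directions compared to Sham. Expressed as scaled counts (raw barcode counts divided by the scaling factor of the sample), *G6pdx*, *Gapdh*, *Hprt* and *Gusb* had higher group means in all 4 irradiated groups, and *Polr1b*, *Polr2a*, *Tbp*, *Rpl19* and *Tubb5* had lower ones. More than 2-fold from Sham were 6 of the 9 in WBIR (3 higher, 3 lower) and 5 after MSC-EVs (3 higher, 2 lower). In RCI they were 7 (3 higher, 4 lower), and 5 after MSC-EVs (2 higher, 3 lower). Of all 440 genes tested, 60.2% were past 2-fold in WBIR (20.5% higher, 39.8% lower) and 59.5% with MSC-EVs (22.3% and 37.3%). For RCI the shares were 61.6% (23.4% and 38.2%) and, with MSC-EVs, 58.2% (22.5% and 35.7%). In the same order, 7, 8, 9 and 9 of the members did not overlap with the Sham samples, against 69.3%, 65.5%, 63.6% and 68.9% of all genes. Nothing is read from these counts, since the same differences chose the members. Within a group the members spanned 4.53 log2 units in WBIR and 5.61 in RCI, from the lowest to the highest.

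**Figure D1:**
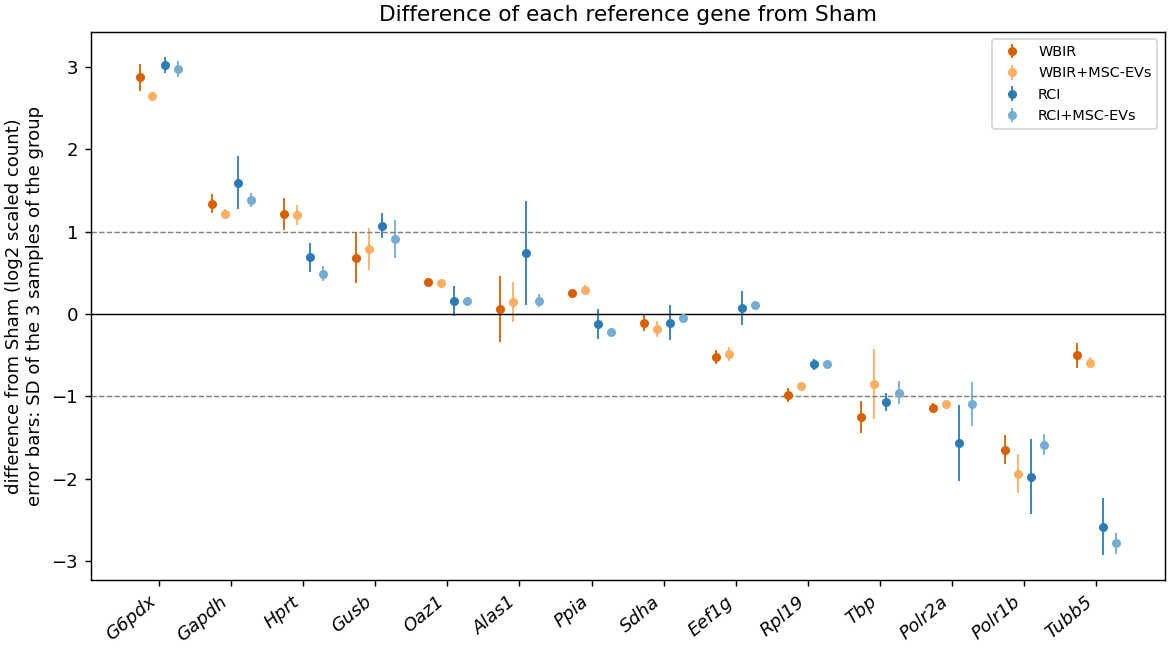
Difference of each of the 14 reference genes from the Sham mean on the log2 scale, in the 4 irradiated groups, after scaling to *Oaz1*, *Ppia*, *Sdha* and *Eef1g*; points are group differences of mean log2 scaled counts and the dashed lines mark 2-fold. *G6pdx* lies highest, at 2.64 to 3.02, and *Tubb5* lies at -2.58 and -2.79 in the RCI groups against -0.50 and -0.59 in the WBIR groups.

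Among the enzymes of glucose use, *G6pdx* (chrX:74409483-74428880) encodes glucose-6-phosphate dehydrogenase, which opens the pentose phosphate pathway and yields NADPH. Its scaled counts were 217, 353 and 283 in Sham, against 1978, 2325 and 1867 in WBIR and 2200.1, 2446 and 2165 in RCI. After MSC-EVs they were 1702, 1734 and 1791 in WBIR and 2274, 2029.7 and 2276 in RCI. All 12 irradiated samples lay above all 3 Sham samples, and no irradiated sample was closer to Sham than 1702 to 353. On the log2 scale its means were 2.88 above Sham in WBIR and 2.64 with MSC-EVs, and 3.02 above Sham in RCI and 2.97 with MSC-EVs. By these differences *G6pdx* ranked 13, 20, 19 and 18 from the top of the 440 genes.

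*Gapdh* (chr6:125161852-125166467), the glycolytic enzyme glyceraldehyde-3-phosphate dehydrogenase and a common loading control, had scaled counts of 4292, 4643 and 4503 in Sham. They were 12022, 11675 and 10322 in WBIR, and 10848, 10109 and 10271 with MSC-EVs. RCI samples had 11678, 12100.3 and 17515, and those with MSC-EVs 11161, 11385 and 12451. Sham and irradiated samples did not overlap, and RCI replicate 3 stood apart at 17515. That gave differences of 1.34, 1.22, 1.60 and 1.38 in the same order of groups, and 1.41 in RCI without replicate 3.

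*Hprt* (chrX:52988078-53021660), hypoxanthine phosphoribosyltransferase of purine salvage, had 125, 141 and 138 scaled counts in Sham. It reached 268, 345 and 326 in WBIR and 324, 325 and 279.7 in WBIR+MSC-EVs. In RCI it was 239, 224 and 189, and in RCI+MSC-EVs 199.9, 177 and 189. Every irradiated sample lay above Sham, and every RCI sample, treated or not, lay below every WBIR sample. The differences from Sham were 1.21 and 1.20 in the WBIR groups and 0.69 and 0.49 in the RCI groups. With this scaling the 2-fold limit was thus passed in the WBIR groups alone. Over other scalings the difference in RCI ran from 0.54 to 1.23.

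*Gusb* (chr5:129989011-130003049), the lysosomal enzyme beta-glucuronidase, passed the limit in RCI alone with this scaling. Over other scalings its difference from Sham ran from 0.51 to 1.28 in WBIR and from 0.92 to 1.61 in RCI. Its scaled counts were 223, 339 and 231 in Sham, 335, 513 and 420.0 in WBIR, and 379.5, 537 and 444 with MSC-EVs. They were 488, 599 and 556 in RCI, and 522, 548 and 406 with MSC-EVs. Of the 12 irradiated samples 11 lay above all Sham samples, the exception being WBIR replicate 1 at 335. The differences were 0.68, 0.79, 1.07 and 0.91, and the value in RCI, a 2.10-fold difference, was the smallest upward difference inside the limit.

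**Figure D2:**
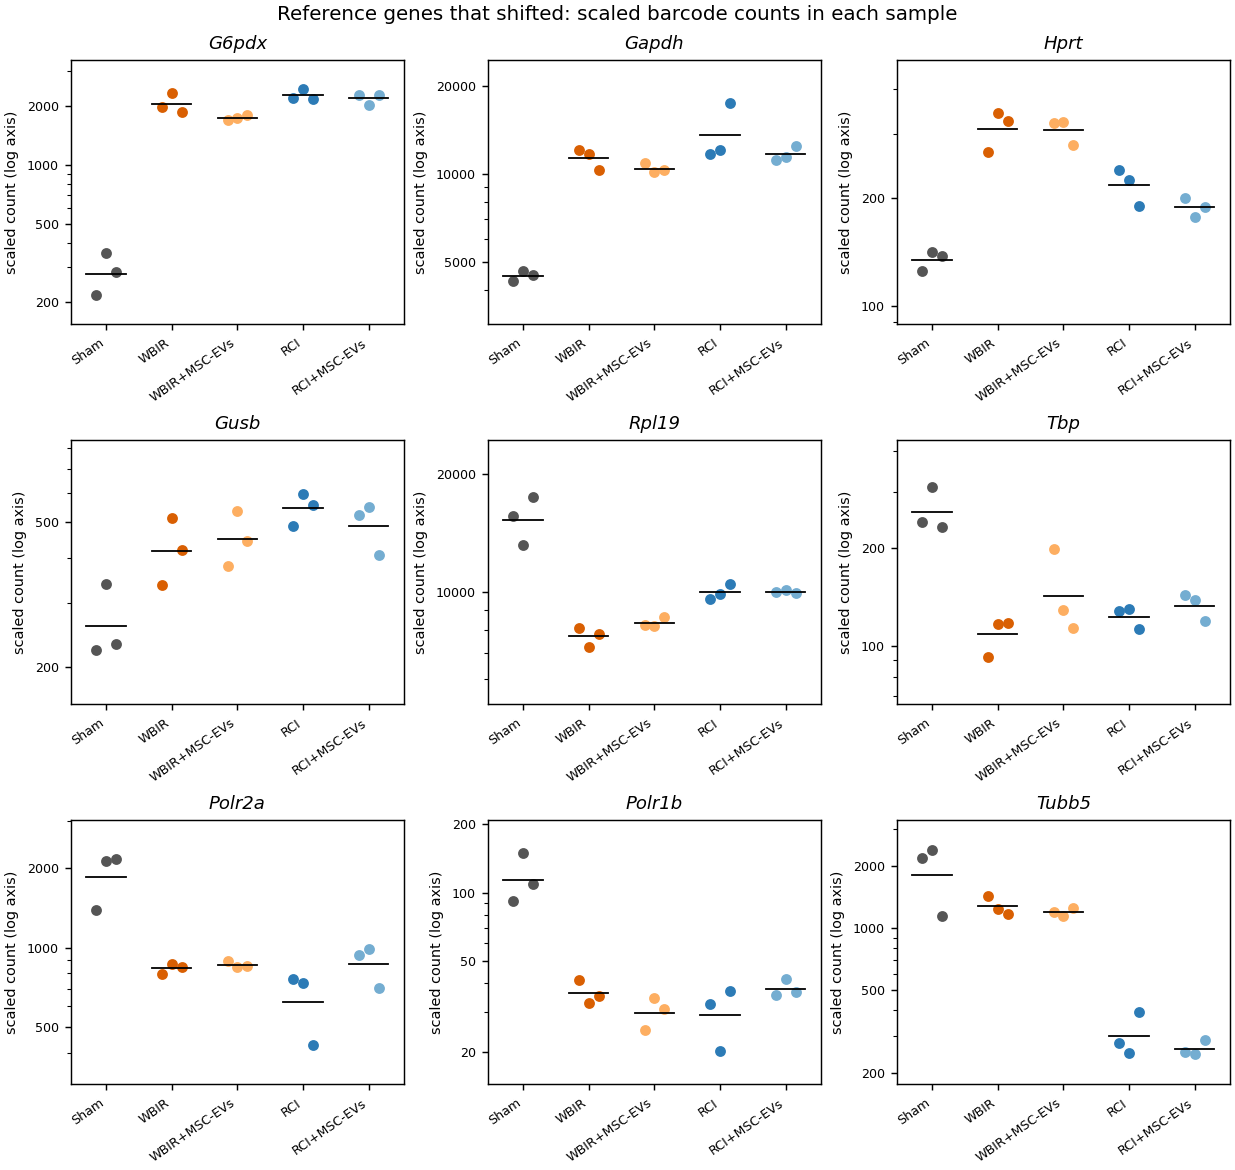
Scaled counts of the 9 reference genes in each of the 15 samples, on a log axis, with 1 panel for each gene, 1 point for each sample and a line at the group mean of log2 values. *G6pdx*, *Gapdh* and *Hprt* lay above Sham in all 12 irradiated samples and *Polr1b*, *Polr2a*, *Rpl19* and *Tbp* below, while *Tubb5* separated the 6 RCI samples from the rest.

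The genes of the transcription machinery were lower. *Polr1b* (chr2:129100970-129128060) encodes a large subunit of RNA polymerase I, which transcribes ribosomal RNA, and had 91.9, 149 and 109 scaled counts in Sham. The 12 irradiated samples ran from 20.3 to 42.0 with a median of 34.8, and all lay below Sham. Its differences were -1.65 and -1.94 in the WBIR groups without and with MSC-EVs, and -1.98 and -1.59 in the RCI groups. This was the least counted of the 9 genes, with as few as 8 raw counts in WBIR+MSC-EVs replicate 1 and 18 in the lowest RCI sample. Its size therefore depended on the background assumed: with 20 counts subtracted throughout, the difference in WBIR came to -2.59, and none is given for RCI, where 1 sample held fewer counts than that.

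*Polr2a* (chr11:69733997-69758633), the largest subunit of RNA polymerase II, which transcribes mRNA, had 1379, 2123 and 2157 scaled counts in Sham. It was down at 798, 866 and 842 in WBIR, and at 893, 847 and 850.4 with MSC-EVs. The RCI values were 764, 734 and 429, and 934, 992 and 703 with MSC-EVs. No irradiated sample reached the Sham range, and the lowest value was again that of RCI replicate 3. The differences were -1.15, -1.10, -1.57 and -1.09, and that in RCI was -1.30 without replicate 3.

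*Tbp* (chr17:15499888-15517427), the TATA-binding protein used by RNA polymerases I, II and III, had 241, 309 and 232 scaled counts in Sham. Irradiated samples ran from 92.5 to 199, with a median of 123, and all lay below Sham. The highest of them, at 199, was WBIR+MSC-EVs replicate 1, the sample with the lowest total count, and the 2 other samples of its group were at 129 and 114. Without and with MSC-EVs the differences came to -1.25 and -0.86 in WBIR and to -1.07 and -0.96 in RCI.

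*Rpl19* (chr11:98022003-98030493), a protein of the large ribosomal subunit, lay at the edge of the rule. Its scaled counts were 15613, 13166 and 17462 in Sham, 8116, 7265 and 7825 in WBIR, and 8232, 8198 and 8643 with MSC-EVs. RCI samples had 9634, 9912 and 10513, and 10004, 10132 and 9933 with MSC-EVs. All 12 irradiated samples were below Sham, the WBIR samples further than the RCI samples. The differences were -0.99, -0.87, -0.61 and -0.61, so that with this scaling *Rpl19* did not pass 2-fold in any group. Just short of the limit were *Rpl19* in WBIR, 1.98-fold lower, and *Tbp* in RCI+MSC-EVs, 1.94-fold lower, and just past it were *Gusb* and *Tbp* in RCI, both at 2.10-fold. *Rpl19* went past the limit in WBIR when all 14 reference genes were used for scaling, at -1.03, when *Sdha* was left out, at -1.02, or when *Eef1g* was, at -1.16 (-1.04 with MSC-EVs). So it did without Sham replicate 2, at -1.10, and without WBIR replicate 1, at -1.02. Median-of-ratios scaling instead brought *Rpl19* closer to Sham, at -0.38 in WBIR and -0.07 in RCI.

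*Tubb5* (chr17:35833920-35838301), a beta-tubulin of microtubules, was the member that depended most on the injury. Its scaled counts were 2177, 2376 and 1141 in Sham, 1433, 1236 and 1169 in WBIR, and 1198, 1148 and 1255 in WBIR+MSC-EVs. In RCI they were 278, 249.9 and 394, and in RCI+MSC-EVs 251, 248 and 289. The WBIR samples overlapped with Sham, whose replicate 3 was the lowest of all Sham values, and the 6 RCI samples lay below every other sample. The differences from Sham were -0.50 and -0.59 in the WBIR groups, against -2.58 and -2.79 in the RCI groups, the last of which is 6.91-fold lower. In WBIR the sign depended on the scaling, being 0.09 with TMM, 0.10 with median-of-ratios and 0.02 with endogenous-total scaling.

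With the 4-gene scaling, 7 of the 9 genes were apart from Sham in every one of the 12 irradiated samples, beside 52% of all 440 genes. These were *G6pdx*, *Gapdh* and *Hprt* above and *Polr1b*, *Polr2a*, *Rpl19* and *Tbp* below. The scaling factor of Sham replicate 2 was 0.36 with the 4 genes but 0.73 with TMM. Separation of single samples can therefore depend on the scaling, and it was not examined with other scalings. Most genes of the panel were lower in irradiated spleens with the 4-gene scaling. The median difference in mean log2 scaled counts over the 440 genes was -0.58 in WBIR and -0.53 in RCI. Relative to that median gene, *Rpl19* stood at -0.41 in WBIR and -0.09 in RCI, *Polr2a* at -0.57 and -1.04, *Tbp* at -0.68 and -0.54, and *Polr1b* at -1.07 and -1.45. *Tubb5* was at 0.07 in WBIR, beside the median gene, and at -2.06 in RCI, where it ranked 390 of 440 from the top. On the same footing *Gusb* was 1.26 and 1.60 above the median gene, *Hprt* 1.79 and 1.22, *Gapdh* 1.91 and 2.12, and *G6pdx* 3.45 and 3.55. These positions do not depend on which scaling was used. Scaling by TMM, median of ratios or the endogenous total instead of the 4 genes would raise all differences from Sham by 0.37 to 0.60, those of the 9 genes included.

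The 4 scaling genes were not level either. *Oaz1*, an inhibitor of polyamine synthesis, differed from Sham by 0.39 in WBIR and 0.16 in RCI, and *Ppia*, the proline isomerase cyclophilin A, by 0.25 and -0.12. *Sdha*, a subunit of succinate dehydrogenase, differed by -0.11 in both, and *Eef1g*, a subunit of translation elongation factor 1, by -0.53 and 0.07. *Eef1g* thus had scaled counts of 1752, 1560.4 and 1651 in WBIR, under all of the Sham values of 2880.2, 2034 and 2301, and of 2332, 2266 and 2944 in RCI, which overlapped with Sham. *Alas1*, the first enzyme of haem synthesis, differed by 0.06 in WBIR and by 0.74 in RCI, where its samples were at 133, 139.6 and 289. The highest of these was RCI replicate 3.

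**Figure D3:**
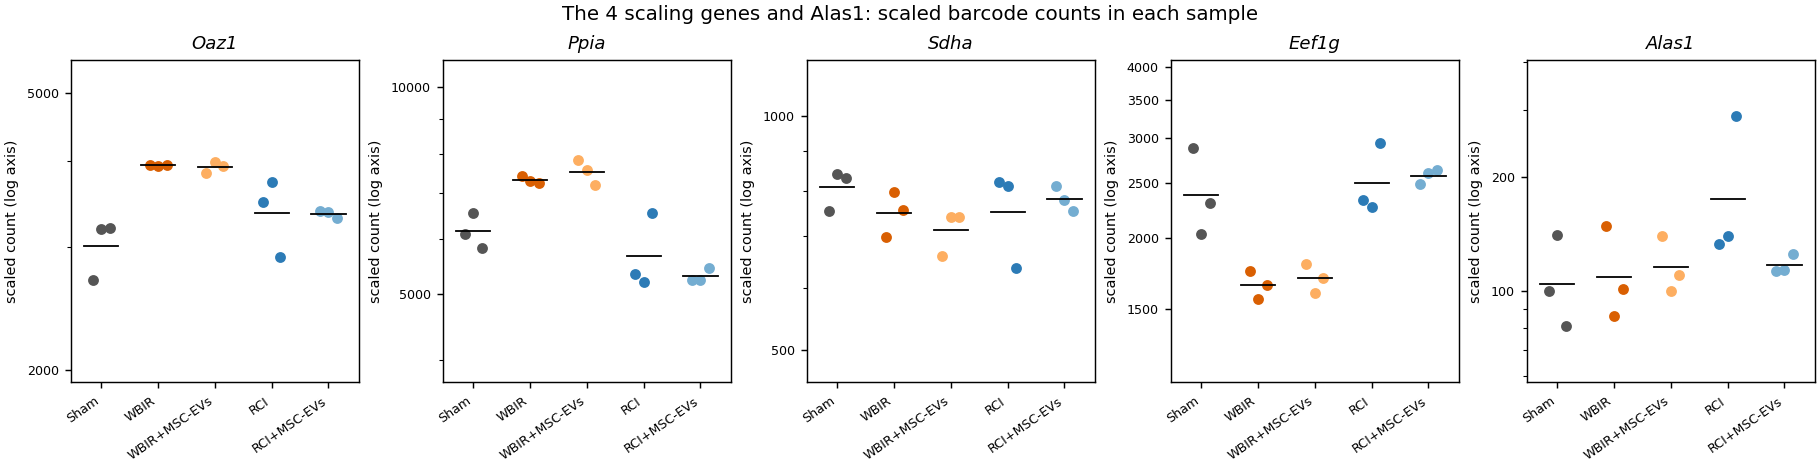
Scaled counts of *Oaz1*, *Ppia*, *Sdha*, *Eef1g* and *Alas1* in each of the 15 samples, on a log axis, with a line at the group mean of log2 values. *Eef1g* lay lower in the 6 WBIR samples, at 1560.4 to 1801, than in the 6 RCI samples, at 2266 to 2944, and *Oaz1* and *Ppia* lay the other way round.

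Ratios of 2 members in the same sample need no scaling gene. Between the enzymes of glucose use, *G6pdx* over *Gapdh* was 1.54 ± 0.14 log2 units above the Sham mean in WBIR and 1.43 ± 0.38 in RCI (SD, n = 3), and 1.43 ± 0.08 and 1.59 ± 0.10 with MSC-EVs. The 2 genes thus differed from Sham by unequal amounts in every irradiated group, and the lowest sample, RCI replicate 3, was still 0.99 above Sham. *Hprt* over *G6pdx*, by contrast, was -1.66 ± 0.19 in WBIR and -2.33 ± 0.17 in RCI, and the RCI samples, at -2.46 to -2.15, did not overlap with the WBIR samples, at -1.83 to -1.46.

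Among the polymerase genes the ratios moved less. *Polr2a* over *Tbp* was 0.11 ± 0.14 in WBIR and -0.24 ± 0.38 with MSC-EVs, -0.50 ± 0.35 in RCI and -0.14 ± 0.14 with MSC-EVs, against an SD of 0.35 in Sham. *Polr1b* over *Polr2a* was -0.50 ± 0.23 in WBIR and -0.41 ± 0.83 in RCI, and -0.84 ± 0.28 and -0.50 ± 0.23 with MSC-EVs. *Rpl19* over *Polr1b* was 0.66 ± 0.10 in WBIR and 1.37 ± 0.44 in RCI, and 1.07 ± 0.24 and 0.98 ± 0.12 with MSC-EVs. The ribosomal protein mRNA thus lay less far below Sham than that of RNA polymerase I. Of the 6 ratios computed, the widest in the WBIR groups was *Hprt* over *G6pdx*, at -1.66 ± 0.19 and, with MSC-EVs, -1.44 ± 0.16. In the RCI groups it was *Gusb* over *Tubb5*. That ratio was at 1.19 ± 0.43 in WBIR and 1.38 ± 0.29 with MSC-EVs, against 3.66 ± 0.38 in RCI and 3.70 ± 0.36 with MSC-EVs. In the RCI groups these values are 12.6-fold and 13.0-fold.

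Replicates of a group differed little for most of the 9 genes, a measure the rule did not use. The SD of log2 scaled counts within groups, pooled over the 5 groups, was 0.10 for *Rpl19*, 0.14 for *Hprt*, 0.16 for *Gapdh* and 0.19 for *G6pdx*. It was 0.25 for *Tbp*, 0.26 for *Gusb*, 0.29 for *Polr2a*, 0.30 for *Polr1b* and 0.31 for *Tubb5*. The median of the 9 was 0.25, against 0.44 over all 440 genes and 0.39 over the 259 genes that averaged 200 counts or more. With the scaling used here, *Rpl19* ranked the second lowest of the 440 genes, next to *Ppia*, *Oaz1* and *Sdha*. As scaling genes, those last have part of their own spread divided out. The rank of *Rpl19* rests on this scaling too: the factor of Sham replicate 2 was 0.36 with it but 0.73 with TMM. Ranks of the spread with other scalings are not given here. The widest spread of a group was that of *Tubb5* in Sham, with an SD of 0.58. *Polr1b* and *Polr2a* were widest in RCI, at 0.46 for both.

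MSC-EVs did not move these genes by an amount that the test detected. In WBIR+MSC-EVs against WBIR the edgeR quasi-likelihood test, with Benjamini-Hochberg adjustment over 440 genes, called 0 of the 9, beside 0% of all genes. Unadjusted p-values under 0.05 were seen in 0 of the 9, and in 8 of the 440. The log2 fold changes ran from -0.25 for *Polr1b* to 0.41 ± 0.25 (SE) for *Tbp*, whose 95% interval was -0.12 to 0.94. Without WBIR+MSC-EVs replicate 1 the value of *Tbp* was 0.15. The samples of *G6pdx*, all lower with MSC-EVs, and of *Rpl19*, all higher, did not overlap between these 2 groups, which is 2 of the 9 genes beside 8.86% of all genes. Their log2 fold changes of -0.24 ± 0.20 and 0.11 ± 0.18 had adjusted p-values of 1.00.

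In RCI+MSC-EVs against RCI, 0 of the 9 genes were called, beside 0% of all genes, with 0 of the 9 and 13 of the 440 at an unadjusted p under 0.05. The largest value was 0.45 ± 0.25 for *Polr2a* (95% interval -0.08 to 0.98), and the lowest was -0.24 ± 0.20 for *Gapdh*. Both were set largely by RCI replicate 3, without which they were 0.23 and -0.03. Groups overlapped for all 9 genes, where 10.5% of all genes did not overlap. Averaged over both injuries the values ran from -0.18 to 0.26, and for *Rpl19* the interval was -0.22 to 0.33. Whether MSC-EVs acted unequally in RCI and WBIR was also tested, with 0 of the 9 called, and unadjusted counts of 0 of the 9 and 10 of the 440. By DESeq2 and by limma, too, 0 of the 9 passed in any of the 4 comparisons. The same held in edgeR with samples of the same number and injury taken as pairs, where 0 of the 9 had an unadjusted p under 0.05. Among these pairs *Polr2a* and *Tbp* were higher with MSC-EVs in 3 of 3 pairs of RCI, and *Gapdh*, *Hprt* and *Tubb5* lower in 3 of 3. In WBIR *Gusb* and *Rpl19* were higher and *G6pdx* and *Gapdh* lower in 3 of 3. The number need not mark true pairs, since some samples of unlike number deviated together as much.

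RCI and WBIR were compared next. The samples entering this comparison also entered the choice of members: *Tubb5* was in the set through its RCI values alone and *Hprt* through its WBIR values alone. Their values here are therefore not independent of the rule, the p-values come from the fit adjusted over all 440 genes, and nothing is read from the share of the 9 genes called. *Tubb5* was 4.15-fold lower in RCI, with a log2 fold change of -2.05 ± 0.27 (95% interval -2.63 to -1.47) and an adjusted p of 0.00106 from edgeR. It was 1 of the 9 genes called, where 0.909% of all genes were, and had the smallest p of all 440. With MSC-EVs given in both, RCI+MSC-EVs lay 4.57-fold below WBIR+MSC-EVs, at -2.19 ± 0.27 and an adjusted p of 0.00054. There it was the single gene of the 440 called, a share of 0.227%. The 6 RCI samples held 248 to 394 scaled counts with a median of 264, against 1148 to 1433 with a median of 1217 in the 6 WBIR samples. The difference between the 2 contrasts, -0.14 ± 0.37, was not called (edgeR adjusted p = 1.00). *Tubb5* kept its call in each of these comparisons under every alternative scaling, test and filter and with each sample left out.

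**Figure D4:**
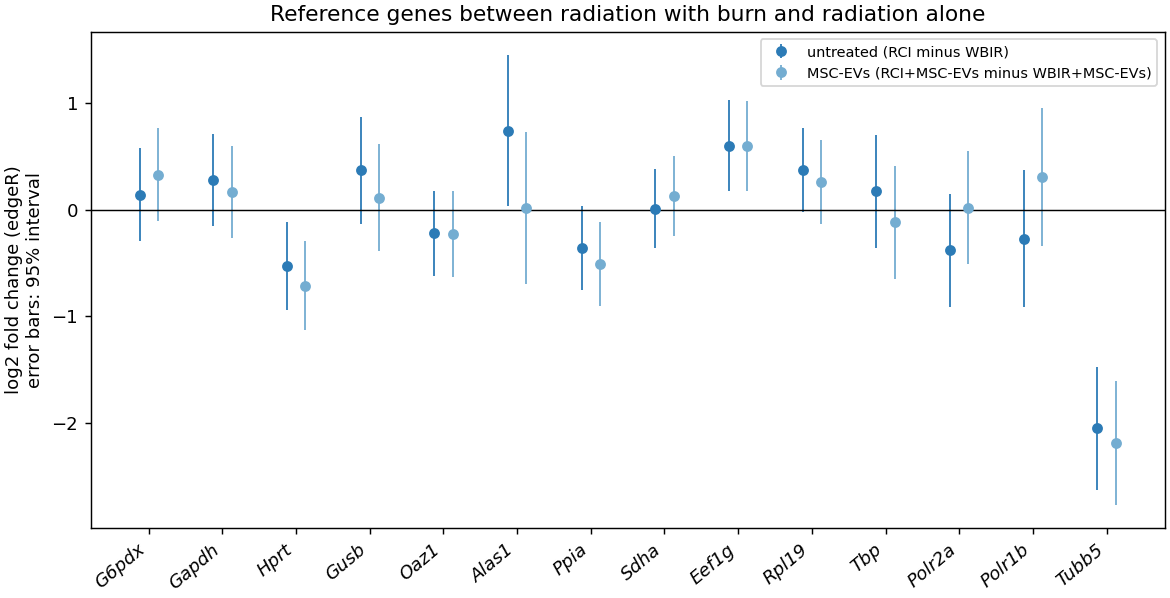
Fitted log2 fold change (edgeR) of each of the 14 reference genes between RCI and WBIR, without and with MSC-EVs; bars are 95% intervals. *Tubb5* lies at -2.05 and -2.19, *Hprt* at -0.53 and -0.71, and *Eef1g*, a scaling gene, at 0.60 in both.

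*Hprt* was lower in RCI too, at -0.53 ± 0.19 without MSC-EVs and -0.71 ± 0.20 with them, but neither was called alone (edgeR adjusted p of 0.228 and 0.285). Averaged over both treatments it was -0.62 ± 0.14, 1.54-fold lower, with an adjusted p of 0.0424. In that average 2 of the 9 genes were called, *Hprt* and *Tubb5* (-2.12 ± 0.19, adjusted p of 1.1e-05), where 1.14% of all genes were. The call of *Hprt* was close to the threshold: it was lost when any of 11 of the 12 irradiated samples was left out, all but RCI replicate 1, with adjusted p-values of 0.0581 to 0.135. It was lost also without *Sdha* in the scaling, with a replicate block and with limma. The samples nevertheless did not overlap, at 177 to 239 scaled counts in the 6 RCI samples and 268 to 345 in the 6 WBIR samples.

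*Rpl19* was the other member without overlap over both treatments, at 9634 to 10513 in the 6 RCI samples and 7265 to 8643 in the 6 WBIR samples, and 3 of the 9 genes beside 8.64% of all genes were separated in this way. Its averaged log2 fold change was 0.32 ± 0.13, with an edgeR adjusted p of 0.206, so it was not called, though DESeq2 called it with an adjusted p of 0.0230. The scaling genes *Oaz1*, *Ppia* and *Eef1g* did not overlap either, and their averaged values were -0.22 ± 0.13, -0.43 ± 0.13 and 0.60 ± 0.14. When *Eef1g* was left out of the scaling, 4 of the 9 genes were called. Those added were *G6pdx* (0.44, edgeR adjusted p of 0.0388) and *Rpl19* (0.52, adjusted p of 0.0278). Calls rose over the whole panel with that setting, to 49 among all genes tested, against 5 with *Eef1g* kept. Over all scalings tried, the averaged value ran from -0.77 to -0.42 for *Hprt* and from 0.17 to 0.52 for *Rpl19*. With the 4-gene scaling alone, the other 6 genes ran from -0.18 for *Polr2a* to 0.24 for *Gusb* and for *G6pdx*, without a call. Within single treatments, samples of RCI and WBIR did not overlap in 4 of the 9 genes without MSC-EVs, beside 25.7% of all genes, and in 6 with them, beside 23.4%.

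To see which other genes behaved alike, each member was set against the 426 endogenous genes by the root mean square difference of their log2 scaled counts over the 15 samples, after centring. *G6pdx* was nearest to *Fcer1g*, a signalling chain of Fc receptors, at 0.26 log2 units, and to the cytokine *Il18* at 0.35, where the median over all genes was 1.45. *Gapdh* was nearest to *Psmb7*, a proteasome subunit, at 0.18 and to the adaptor *Myd88* at 0.20, and *Gusb* to the integrin *Itgb1* and the cytokine receptor chain *Csf2rb*, both at 0.18. *Hprt* lay closest to *Casp1* at 0.26 and to the ubiquitin-conjugating enzyme *Ube2l3* at 0.27.

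Of the genes that were lower, *Polr2a* was nearest to the kinase *Jak1* at 0.17 and to *Nfatc3* at 0.18, and *Tbp* to *Stat5b* and *Pdcd2* at 0.21. *Rpl19* had *Nfkb1* among its 2 nearest, at 0.22. *Polr1b* was nearest to *Casp2* at 0.25 and to *Adal* at 0.29. *Tubb5* had no near companion: its closest were *Cxcr6*, a chemokine receptor, at 0.66 and *Prf1*, the pore-forming protein of cytotoxic cells, at 0.67. Within the set the closest pairs were *Polr2a* with *Tbp* and *Rpl19* with *Tbp*, both at 0.32, and *Gapdh* with *Gusb* at 0.34. The farthest were *G6pdx* and *Tubb5*, at 2.11. These distances describe likeness over 15 samples that fall in 5 groups.

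A single member used as the only scaling gene shows the consequence for the other genes by arithmetic. Scaled by *G6pdx* alone, the median of the 426 endogenous genes was -3.48 log2 units from Sham in WBIR, and 88.5% of them were more than 2-fold lower against 1.17% higher. Scaled by *Polr1b* alone, the median was 1.04, with 50.7% more than 2-fold higher and 12.7% lower. *Gapdh* gave -1.95, *Hprt* -1.82, *Gusb* -1.29, *Rpl19* 0.38, *Polr2a* 0.54, *Tbp* 0.65 and *Tubb5* -0.10. In RCI the medians were -3.56 with *G6pdx* and 2.05 with *Tubb5*, the outermost on either side. All 14 genes together gave -0.65 in WBIR and -0.48 in RCI, close to the -0.61 and -0.53 of the 4 scaling genes, so that in the mean of 14 the members above Sham and those below nearly balanced.

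**Figure D5:**
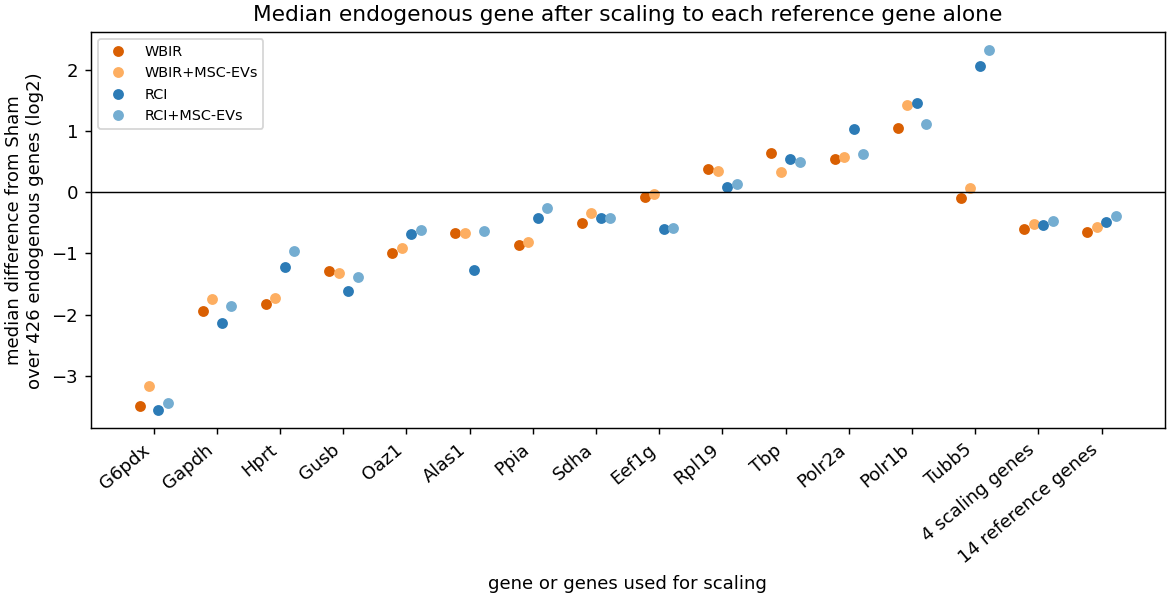
Median difference from Sham (log2) of the 426 endogenous genes when a sample is scaled by each reference gene alone, by all 14 or by the 4 scaling genes, in the 4 irradiated groups. The medians run from -3.48 with *G6pdx* to 1.04 with *Polr1b* in WBIR, and from -3.56 with *G6pdx* to 2.05 with *Tubb5* in RCI.

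Other genes of broad use on the panel were counted in the same fit, and they divided in direction, as did the whole panel. Of 16 genes of broadly used cell machinery, such as the proteasome, autophagy and ubiquitin transfer, 5 rose, 6 fell and 5 were not called in WBIR against Sham, and 6 rose, 5 fell and 5 were not called in RCI. Their median fitted log2 fold changes were -0.16 and -0.03, where those of all 440 genes were -0.69 and -0.57, and 66.6% of all genes were called in WBIR (22% higher, 44.5% lower) and 68% in RCI (25.2% higher, 42.7% lower). In WBIR *App*, the amyloid precursor protein, rose by 1.95 ± 0.29 (edgeR adjusted p of 4.9e-05), and *Atg16l1*, of autophagosome formation, fell by 1.94 ± 0.30 on the log2 scale (adjusted p of 7.9e-05). The split moved with the scaling, and with TMM 8 of the 16 were called higher and 3 lower in WBIR.

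Of 12 enzymes and transporters of metabolism and allied genes, 4 rose, 6 fell and 2 were not called in WBIR, and 4 rose, 5 fell and 3 were not called in RCI. Of all 440 genes 22% rose and 44.5% fell in WBIR, and 25.2% rose and 42.7% fell in RCI. The list had median log2 fold changes of -1.06 and -0.81, where those of all genes were -0.69 and -0.57. The nuclear receptor *Pparg* was at 3.55 ± 0.30 (edgeR adjusted p of 3.6e-07) and the peptidase *Dpp4* at -3.92 ± 0.40 (adjusted p of 1.6e-06) in WBIR. Of 14 genes of the DNA damage response, cell cycle and apoptosis, 4 rose, 8 fell and 2 were not called in WBIR, and 4 rose, 7 fell and 3 were not called in RCI. The medians of this list, -0.66 and -0.56, lay close to those of all genes. *Cdkn1a*, the cyclin-dependent kinase inhibitor induced by p53, was at 4.78 ± 0.39 in WBIR (edgeR adjusted p of 2.6e-07), and *Bcl2*, which restrains apoptosis, at -2.25 ± 0.47 (adjusted p of 0.000782). In the 4 comparisons of the MSC-EV effect, edgeR, DESeq2 and limma called 0 of the genes in these 3 lists, and 0 passed an unadjusted p under 0.05. Between RCI and WBIR averaged over treatment, edgeR and limma called 0 of them, with 3, 2 and 1 genes of the lists at an unadjusted p under 0.05, and DESeq2 called 1 each in the first and second list.

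Markers of several cell types of the spleen also differed from Sham. The counts of calls below stand beside shares over all 440 genes of 22% higher and 44.5% lower in WBIR. In RCI those shares were 25.2% and 42.7%. The summed scaled counts of 8 B cell markers were 16964 to 18584 in Sham and at most 1736 in any irradiated sample, and all 8 fell in WBIR and in RCI. The 9 T cell markers summed to 6444 to 17107 in Sham and at most 3605 in any irradiated sample, and all 9 fell in both. Macrophage markers, 6 on the panel, summed to 1852 to 2577 in Sham and to 10046 or more in every irradiated sample, and 6 of the 6 rose in WBIR and 5 of the 6 in RCI. Neutrophil markers summed to 6716 to 45534 in Sham and 1349 to 9706 in irradiated samples, and those of stroma and endothelium to 1710.4 to 3895 in Sham and 1568 to 2987 in irradiated samples, so that both overlapped with Sham. Of the 5 neutrophil markers tested 4 fell in WBIR and in RCI. Of the 7 of stroma and endothelium, 2 rose, 1 fell and 4 were not called in WBIR. In RCI 4 of these 7 rose, 1 fell and 2 were not called. Of 5 markers of NK and cytotoxic cells 1 rose and 4 were not called in WBIR, and 2 fell and 3 were not called in RCI. The part of these cell types in the differences of *G6pdx*, *Gapdh*, *Polr2a* and the other members was not tested.

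Between RCI and WBIR, the 5 markers of NK and cytotoxic cells had lower values in RCI, as *Tubb5* had, without being called by edgeR. They summed to 411 to 567 scaled counts in RCI and 412 to 659 in RCI+MSC-EVs, against 767 to 1490.2 in WBIR and 783 to 1539.9 in WBIR+MSC-EVs, with 528 to 1976 in Sham. Their median log2 fold change was -0.96 in RCI against WBIR, where that of all genes was 0.10. Averaged over treatment, all 5 had an unadjusted p under 0.05, and after adjustment edgeR and limma called 0 of the 5 and DESeq2 called 2. The Sham samples overlapped with the WBIR groups in these markers, as in *Tubb5*, but also with the RCI groups, where *Tubb5* did not. Other markers differed by medians of like size in RCI against WBIR, at -1.16 for neutrophils, 0.84 for stroma and endothelium and 0.65 for macrophages, and edgeR called 0 of them, with 0, 1 and 2 at an unadjusted p under 0.05. By limma 0 were called, and DESeq2 called 1, a macrophage marker. The part of any of these cell types in the values of *Tubb5* was not tested.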

How the data were processed

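The authors deposited raw barcode counts, as their digital analyser gave them before any normalisation in nSolver, with whole numbers of at least 1 and totals that differ between samples. A count of 0 may therefore be stored as 1, and no control probes were used here. Cartridges and run dates were not used here. Each sample was scaled to the geometric mean of *Oaz1*, *Ppia*, *Sdha* and *Eef1g*, so differences are relative to those genes.

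Counts were tested with edgeR 4.0.16 in R 4.3.3 (glmQLFit, robust, and glmQLFTest, two-sided), with these scaling factors as offsets and all 15 samples in 1 fit, over the 440 genes that averaged 20 counts or more, reference genes included. Benjamini-Hochberg adjustment was made within a comparison, and genes with an adjusted p under 0.05 were called. Replicates varied by 34.0% beyond counting error (common dispersion 0.116), with 10 residual degrees of freedom. Precision was thus limited by the spread and the 3 samples per group, and for *Polr1b* also by its few counts. The fit shared the spread in part among genes, so the SE of a gene with tight replicates can exceed its own spread. For *Rpl19* in RCI against WBIR the SE was 0.18, beside a pooled within-group SD of 0.10. DESeq2 1.42.0, limma 3.58.1 (log2 of scaled counts plus a pseudocount of 10), other scalings, no filter, a replicate block, 20 counts subtracted and each sample left out were alternatives. Scripts were tested on simulated data.

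The members and gene lists were chosen with earlier results of these data known. The genes named are the 14 reference genes, the 2 nearest profiles of each member, and 2 genes from each of 3 lists. The lists cover broadly used cell machinery, metabolism, and DNA damage response with cell cycle and apoptosis. From each, the 2 called genes furthest from Sham in WBIR were taken. For *Rpl19*, 1 of the 2 nearest profiles is not reported here. RCI+MSC-EVs against WBIR+MSC-EVs, the ranks and the differences relative to the median gene were added after the data were seen. Samples with the same number deviated together within an injury (correlations of 0.21 to 0.67 between WBIR and WBIR+MSC-EVs, and 0.26 to 0.52 between RCI and RCI+MSC-EVs) but not in every pair between injuries or with Sham. Some samples of unlike number deviated together as much, at 0.51 for WBIR replicate 2 with WBIR+MSC-EVs replicate 3. For RCI replicate 1 with RCI+MSC-EVs replicate 2 the correlation was 0.35, and other such pairs went as low as -0.59. The number thus does not settle which samples belong together. A block on the number within each injury, added after the data were seen, was fitted for the MSC-EV comparisons as an alternative. Promoter sequences and gene positions came from RefSeq tables of mouse assembly GRCm38.p6, in which all 9 members were found.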

Additional observations from a re-analysis of the deposited data

Results flagged for a closer look

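Between the injuries, *Tubb5* differed past the threshold in each comparison tested with edgeR, at -2.05 for RCI against WBIR, at -2.19 for RCI+MSC-EVs against WBIR+MSC-EVs and at -2.12 averaged over both treatments, on the log2 scale. *Hprt* differed in the average alone, at -0.62. They stand here for a difference between the 2 injuries. *Tubb5* became a member through its RCI values alone and *Hprt* through its WBIR values alone, so these differences are not independent of the choice of members.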

How the results depend on the processing

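*Tubb5* kept its direction and its call between RCI and WBIR under all 28 alternatives, from -2.28 to -1.85 without MSC-EVs and from -2.36 to -1.99 with them. The 9 genes kept the sign of their differences from Sham under all alternatives except *Tubb5* in WBIR. Of the 9 genes, 2 were called in the average of RCI minus WBIR. This number was 3 with DESeq2, 1 with limma and without *Sdha*, 4 without *Eef1g*, and 1 to 2 with a sample left out. In RCI+MSC-EVs against WBIR+MSC-EVs, 1 was called, and DESeq2 called 2, with *Hprt* added. The replicate block gave 1 member in the average, where *Hprt* was at an adjusted p of 0.0646, and it changed no other call of a member. A block on the number within each injury left 0 of the 9 called in each MSC-EV comparison. Over the 30 pairs of samples with the same number in different groups, the correlation of deviations ran from -0.49 to 0.67.

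Among all genes, RCI against WBIR gave 4 calls, against 17 with DESeq2, 9 with median-of-ratios scaling and 2 to 11 with a sample left out. The 11 came without RCI replicate 1 and the 2 without RCI replicate 3 or WBIR replicate 3. The average gave 5 calls, against 38 with DESeq2, 3 with limma, 28 with median-of-ratios, 31 with TMM, 22 with all 14 reference genes, 49 without *Eef1g*, 8 with the endogenous total and 8 without a filter. With a sample left out it gave 3 to 54, the 54 without Sham replicate 2. RCI+MSC-EVs against WBIR+MSC-EVs gave 1 call, against 5 with DESeq2 and 1 to 2 with a sample left out, and MSC-EVs averaged over both injuries gave 0, against 1 with DESeq2. The cause was not tested. *Polr1b*, at 8 raw counts in the shallowest sample, is the member most limited by depth.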
